A study of Mus musculus with 4 samples.

Results

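Cxcl13 encodes a chemokine, a secreted protein that attracts cells along its gradient, and was 1 of 30406 genes with an identifier in all 4 libraries of this series. It was chosen by its measured fall in microglia of IFNaR-/- mice, so its differences between genotypes are given here as descriptions. The libraries were single-cell RNA sequencing of live CD45.2+ immune cells sorted from brains of mice carrying GL261, a mouse glioma line implanted in the brain. The libraries came from IFNaR-/- (KO) mice given anti-PD1, an antibody against the T cell checkpoint receptor PD-1, at 200 ug on days 7, 11, 15 and 19 and sorted on day 25, and from untreated KO mice sorted on day 20, each set beside WT mice with the same treatment and day. Each group was 1 library of pooled brain suspensions, with no number of mice given, and in the anti-PD1 groups CD3+ and CD3- cells were mixed in equal parts. With 1 library per group there is no spread between replicates, so no p-values are given, and every interval is a 95% interval for counting error only.

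CXCL13 is known as the B cell chemoattractant of lymphoid follicles, where stromal and follicular dendritic cells make it and B cells and follicular helper T cells follow it through the receptor CXCR5. Its transcription in those stromal cells is known to depend on the lymphotoxin receptor and the non-canonical NF-kB dimer of RelB and p52. Type I interferons act through the IFNaR receptor, which KO mice lack, and switch on a large set of interferon-stimulated genes in most cells. Microglia are the resident macrophages of the brain, and tumour-bearing brains also hold macrophages that come from blood monocytes.

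Cxcl13 (ENSMUSG00000023078) lies on the plus strand of GRCm38 chr5:95956951-95961068. It has 1 annotated transcript with 4 exons, the last at chr5:95960214-95961068, and no other annotated gene overlaps it on either strand. RefSeq places its start at 95956939 on the same build, 12 bases before the start above. The 250 bases before the RefSeq start (GRCm38.p6, chr5:95956689-95956938, plus strand) are shown because Cxcl13 was low in cells that lack the interferon receptor, and a known interferon motif can be looked for in them. The capitals mark a match to the letters of a TATA box, TATAAA.

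Cxcl13 promoter: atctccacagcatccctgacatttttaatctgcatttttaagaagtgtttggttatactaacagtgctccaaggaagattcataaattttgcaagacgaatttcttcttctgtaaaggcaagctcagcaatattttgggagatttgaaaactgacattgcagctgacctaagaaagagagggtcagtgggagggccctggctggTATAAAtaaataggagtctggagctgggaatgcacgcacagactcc

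The TATAAA match began 46 bases before the RefSeq start, and whether it acts as a TATA box was not tested. Its 6 letters occurred, on either strand, in 13.6% of 32851 promoter windows, each running from 250 bases before to 50 after a gene's start. GAAANNGAA, a repeat that interferon regulatory factors bind, was not found in the Cxcl13 window on either strand, and 8.56% of all windows held it. No match says only that these letters are not in this window.

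The kept cells numbered 8475 in KO anti-PD1, 9464 in WT anti-PD1, 2809 in untreated KO and 5262 in untreated WT, with median depths between 5152 and 9531 UMIs (counted RNA molecules) per cell. Neither interferon receptor gene was at 0 in KO cells, and the labels do not say which subunit was deleted: Ifnar1 had 147 CPM (UMIs of the gene scaled to a library sum of 1000000) in KO and 77.3 CPM in WT anti-PD1 cells, and 129 CPM in KO and 96.0 CPM in WT untreated cells. Isg15, a gene switched on by interferon, had 57.3 CPM in KO and 1033 CPM in WT anti-PD1 cells, and 92.1 CPM in KO and 964 CPM in WT untreated cells. The libraries also differed in how T cell receptor genes were read. The ratio of variable to constant T cell receptor UMIs in T cells was 0.0859 in KO anti-PD1, 2.18 in WT anti-PD1, 0.0166 in untreated KO and 0.0177 in untreated WT, although the labels name the same kit for all of them. The anti-PD1 difference between genotypes therefore runs across libraries that differ in this ratio, and the part of whatever sets it was not tested. KO and WT anti-PD1 shared 95 barcodes, and other library pairs shared 0 to 3. Leaving out every shared barcode left Cxcl13 at 2.03 CPM in KO and 118 CPM in WT anti-PD1 microglia.

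Cxcl13 was read almost entirely in cells with microglial markers, and almost only in WT. Cells were named by the summed UMIs of marker genes. The microglia gate was at least 2 UMIs of Tmem119, P2ry12, Gpr34 and Sall1. A cell that passed 1 gate alone took that name. A cell that passed both the microglia and the macrophage gate took the one with more marker UMIs. Ties, and cells that passed any other pair of gates, were set apart. Over all kept cells there were 1789 Cxcl13 UMIs in 197 of 26010 cells. They were 39 UMIs in 13 KO cells and 1364 UMIs in 140 WT cells with anti-PD1, and 3 UMIs in 2 KO cells and 383 UMIs in 42 WT cells without treatment. Cells that passed the microglia gate, whatever other gate they passed, held 24 of 39 UMIs (61.5%) in KO and 1336 of 1364 (97.9%) in WT with anti-PD1, and all 3 in KO and 378 of 383 (98.7%) in WT without treatment.

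The named microglia carried the markers of their label. Cx3cr1, the fractalkine receptor, which the gate did not use, stood at 1636 CPM in KO and 923 CPM in WT anti-PD1 microglia and at 2843 CPM in KO and 2657 CPM in WT untreated microglia, against 90.9 to 225 CPM in monocytes and macrophages. Csf1r, the receptor for colony-stimulating factor 1, stood at 1588 CPM in KO and 1314 CPM in WT anti-PD1 microglia and at 2673 CPM in KO and 2292 CPM in WT untreated microglia, against 491 to 679 CPM in monocytes and macrophages. Markers of other sources of CXCL13 were low in them. Of 4 follicular dendritic cell genes, 3 were in the files, and they summed to 10.9 CPM in KO and 9.40 CPM in WT anti-PD1 microglia and to 21.5 CPM in KO and 15.0 CPM in WT untreated microglia. Cr2 was at 0 in all 4 libraries, Madcam1 had 6 UMIs in KO and 9 in WT with anti-PD1 and 0 in both without treatment, and Mfge8, a gene that macrophages also make, gave the rest. A list of 10 stromal, endothelial and neural genes summed to between 9.34 and 26.9 CPM, with Sox2 and Olig2 at 0 in all 4. The sum of 5 border-associated macrophage genes moved with genotype. It was 83.1 CPM in KO and 13.2 CPM in WT anti-PD1 microglia, and 71.9 CPM in KO and 9.50 CPM in WT untreated microglia. Cd163 was at 0 in all 4. Lyve1 went the other way, at 0 in both KO libraries and in neither WT library. Only 2 of the 5 with anti-PD1 and 1 without treatment had enough UMIs for a ratio. Each of these was at least 2-fold higher in KO. In monocytes and macrophages the sum was 563 CPM in KO and 68.3 CPM in WT with anti-PD1. Without treatment it was 1075 CPM in KO and 73.8 CPM in WT. The part of these genes in the Cxcl13 values was not tested.

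In named microglia, Cxcl13 had 14 UMIs in 1098 KO cells and 561 UMIs in 465 WT cells with anti-PD1. This was 2.003 CPM (interval 1.10 to 3.36) in KO against 117 CPM (108 to 127) in WT, 58.5-fold lower in KO (34.6 to 108). Without treatment it had 0 UMIs in 140 KO cells and 93 UMIs in 185 WT cells, with 73.6 CPM (59.4 to 90.2) in WT. Set at a floor of 3 UMIs in the KO sum, with the WT sum taken as counted, this was at least 26.3-fold lower in KO. The exact interval, which counts the error of both sums, ran up to a log2 ratio of -4.39. KO microglia thus held few or no Cxcl13 UMIs at either time.

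Many cells with the microglia gate were set apart, in part because microglia also carry Csf3r, a receptor gene that was part of the neutrophil gate. At least 3 Csf3r UMIs alone were present in 651 of 882 such cells in KO and 525 of 792 in WT with anti-PD1, and in 132 of 209 in KO and 218 of 415 in WT without treatment. An inclusive gate therefore stands beside the named cells and also takes cells that passed other gates. Cells of both myeloid gates went to the one with more marker UMIs, and ties went to microglia. The inclusive gate held 1815 KO and 991 WT anti-PD1 microglia and 300 KO and 517 WT untreated microglia. There Cxcl13 had 1.51 CPM (0.936 to 2.31) in KO and 98.3 CPM (92.9 to 104) in WT with anti-PD1, 65.0-fold lower in KO (42.3 to 105). Without treatment it had 0.840 CPM (0.173 to 2.46) in KO and 64.8 CPM (58.4 to 71.7) in WT, 77.1-fold lower in KO (26.2 to 376). The 3 untreated KO UMIs lay in 2 cells that passed the Csf3r threshold. In untreated WT, 149 of the 415 set-apart cells passed the T cell gate, and 1 of these held 88 Cxcl13 UMIs. Plasma and mast cell genes (Igkc, Jchain, Mcpt1, Mcpt2, Mcpt4 and Cma1) had lower untreated KO/WT ratios than Cxcl13 in the inclusive gate. Barcodes with RNA of more than 1 cell may thus be in it, which was not tested. Without its cells of lymphoid or mast gates, the log2 ratio KO/WT was -5.75 untreated and -5.96 with anti-PD1.

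**Figure D1:**
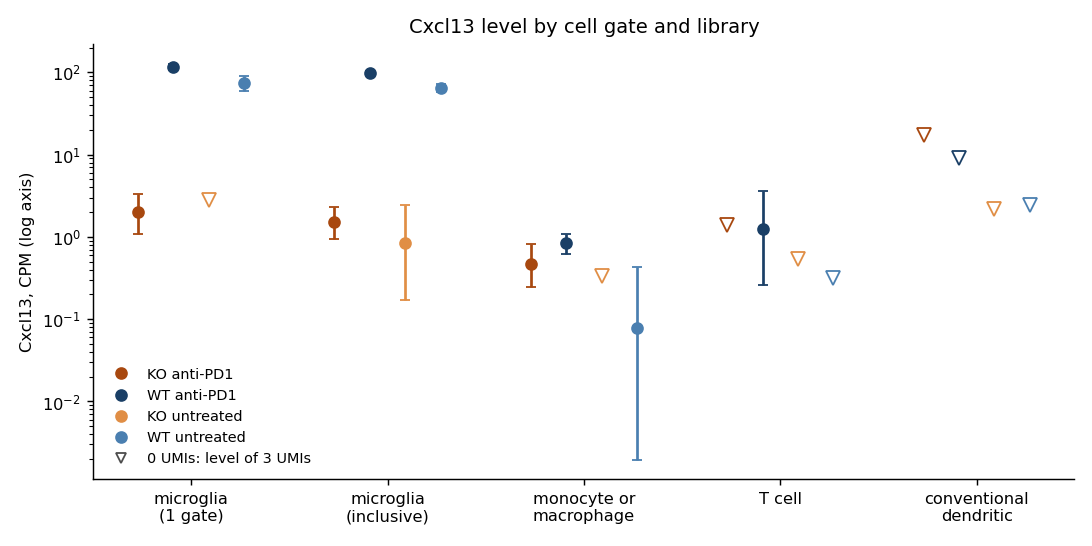
Cxcl13 CPM (log axis) of the summed cells of 5 gates (microglia, inclusive microglia, monocyte or macrophage, T cell and conventional dendritic cell) in each library, with exact Poisson intervals; open triangles mark 0 UMIs and stand at the level of 3 UMIs. Both WT libraries stand at 73.6 and above in named microglia, and the highest point or triangle shown outside WT microglia is the 3-UMI level of KO anti-PD1 conventional dendritic cells at 17.1.

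Between treatments, WT microglia had 117 CPM with anti-PD1 and 73.6 CPM without, a ratio of 1.59 (1.28 to 2.005). The inclusive gate gave 98.3 CPM with anti-PD1 and 64.8 CPM without, a ratio of 1.52 (1.35 to 1.71). The size of this ratio was not stable. As a log2 ratio in named cells it was 0.66, against 1.01 and 2.02 without the 1 and the 5 cells with the most Cxcl13 UMIs in each library. It was 2.48 with a stricter cell filter (at least 500 genes, at most 5% mitochondrial), which left 16 UMIs in untreated WT, and 0.10 with cells thinned to 1000 UMIs. Day, cell mix, software version and the T cell receptor ratio all differed between these libraries and cannot be told apart from the treatment.

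A small share of WT microglia carried the RNA, and a few cells carried most of it. With anti-PD1, 3 of 1098 KO microglia (0.273%, 0.0564 to 0.796) and 35 of 465 WT microglia (7.53%, 5.30 to 10.3) had a Cxcl13 UMI. Without treatment these were 0 of 140 KO microglia, which allows a share of up to 2.14% by the limit of 3 counts (exact interval 0 to 2.60), and 13 of 185 WT microglia (7.03%, 3.79 to 11.7). Between treatments, these 2 WT shares lay within each other's intervals. The inclusive gate gave 0.331% in KO and 9.38% in WT (7.64 to 11.4) with anti-PD1, and 0.667% in KO and 6.96% in WT (4.92 to 9.51) without treatment, WT intervals that overlapped. The T cells of the same libraries, which should lack the transcript, had a UMI in 0 of 553 KO and 3 of 442 WT cells (0.679%) with anti-PD1 and in 0 of 506 KO and 0 of 985 WT cells without treatment, at median depths of 3329, 4729.5, 9186.5 and 8089 UMIs. Median depths of microglia were 5452 in KO and 8757 in WT with anti-PD1, and 6400.5 in KO and 5644 in WT without treatment.

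After each cell was thinned to 2000 UMIs, which left out shallower cells (78 KO and 13 WT with anti-PD1, 18 KO and 12 WT without), the order of the genotypes stayed. A UMI was left in 0.196% of 1020 KO and 4.42% of 452 WT microglia (2.72 to 6.75) with anti-PD1. It was left in 0 of 122 KO microglia, which allows up to 2.46% by the same limit (exact interval 0 to 2.98), and in 2.89% of 173 WT microglia (0.945 to 6.62) without treatment. The exact intervals of the untreated genotypes overlapped, so their difference in thinned named cells was not distinguishable at this depth. In the inclusive gate the thinned untreated shares were 0 of 278 KO microglia (up to 1.08%; exact interval 0 to 1.32) and 3.37% of 505 WT microglia (1.97 to 5.34), and the intervals did not overlap.

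**Figure D2:**
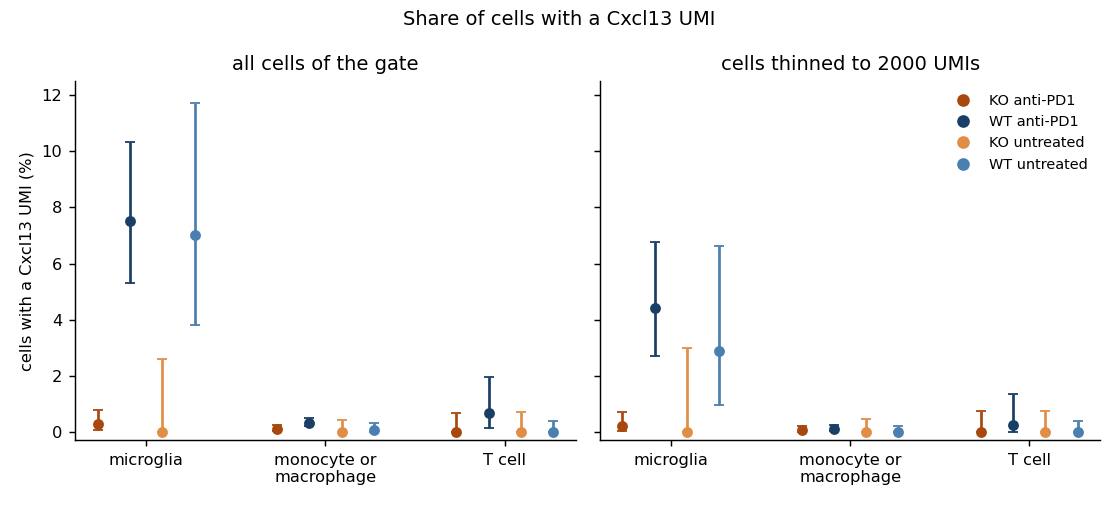
Share of cells with at least 1 Cxcl13 UMI (%) in microglia, monocytes or macrophages and T cells of each library, for all cells (left) and cells thinned to 2000 UMIs (right), with exact Clopper-Pearson intervals. WT microglia stand at 7.53% and 7.03% before thinning, while KO microglia and both other cell types stay under 1%.

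Positive WT microglia ranged widely in how much they held. With anti-PD1, the 3 positive KO microglia held 12, 1 and 1 UMIs, while the 35 positive WT microglia had a median of 4 UMIs, 9 of them with 1 UMI and 9 with 10 or more. Without treatment no KO microglia was positive, and the 13 positive WT microglia had a median of 2 UMIs, 6 of them with 1 UMI and 3 with 10 or more. The highest WT cell held 243 UMIs with anti-PD1 (43.3% of the sum) and 52 without treatment (55.9%). Over all kept cells the 2 highest cells held 30.4% of Cxcl13 UMIs in WT anti-PD1 and 49.1% in WT untreated. Since so few cells carry the sum, its Poisson interval is narrower than the spread between cells.

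**Figure D3:**
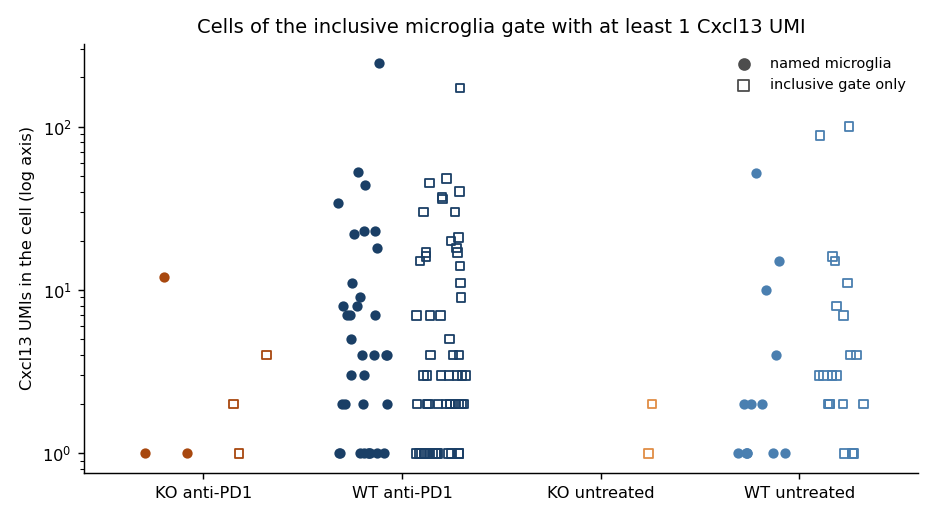
Cxcl13 UMIs (log axis) in each cell of the inclusive microglia gate that held at least 1, by library; filled circles are named microglia and open squares are cells of the inclusive gate only. Cells with more macrophage than microglia marker UMIs are not shown. The highest cell held 243 UMIs in WT anti-PD1 and 100 in WT untreated, against 12 in KO anti-PD1 and 2 in KO untreated.

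Leaving out the cell with the most Cxcl13 UMIs in each library gave an anti-PD1 log2 ratio KO/WT of -7.54, against -5.82 with all cells. The untreated bound was then -3.55, against -4.72 with all cells, and 41 UMIs were left in WT. Without the 5 highest cells 10 UMIs were left in untreated WT and the bound was -1.56. With 0 UMIs in untreated KO, leaving out cells could not turn the untreated direction. How far the untreated sum of named cells fell below WT rests on those cells. With the stricter cell filter, which left 16 UMIs in untreated WT, the untreated bound was -1.45. In the inclusive gate, with all cells, the untreated ratio was -6.05.

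Monocytes and macrophages, gated on Ccr2, Tgfbi, Ms4a7, F13a1 and Vcan, held little Cxcl13 in any library. They had 12 UMIs in 4179 KO cells and 51 UMIs in 6351 WT cells with anti-PD1, 0.471 CPM (0.244 to 0.823) in KO and 0.832 CPM (0.620 to 1.09) in WT. The ratio, 1.77-fold lower in KO, had an interval of 0.929 to 3.64 and so was not distinguishable from equal levels at this depth. The inclusive gate gave 0.521 CPM in KO and 1.32 CPM in WT, 2.53-fold lower in KO with an interval of 1.52 to 4.44, so this result depends on the gate. Without treatment they had 0 UMIs in 875 KO and 1 UMI in 1766 WT cells, both under the floor, and no fold is given. A UMI was seen in 0.0957% of KO and 0.331% of WT cells with anti-PD1, at median depths of 5021 and 8767 UMIs. The WT share was below the 0.679% of WT T cells (0.140 to 1.97, from 3 cells of 1 UMI each), so it is not read here as expression above background. The highest single cells held 6 and 4 UMIs in KO and 17 UMIs in WT. In WT anti-PD1 no cell outside the microglia gate held more than 4 UMIs, so the cell with 17 had also passed that gate. With cells of both myeloid gates left out, 12 UMIs were left in KO and 16 in WT (log2 ratio 0.79). The source of the UMIs in these cells was not tested.

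Within WT, microglia stood 141-fold above monocytes and macrophages with anti-PD1 (106 to 191; 117 and 0.832 CPM) and 949-fold without treatment (166 to 37898; 73.6 and 0.0775 CPM, the lower from 1 UMI). In the inclusive gates, where ties went to microglia, the ratios were 74.6 (60.8 to 92.3) with anti-PD1 and 325 (138 to 1007) without. Among WT anti-PD1 monocytes and macrophages, cells with at least 2 Ly6c2 UMIs, a marker of recent monocytes, had a Cxcl13 UMI in 11 of 3542 cells (0.311%), and the rest in 10 of 2809 (0.356%). Cells with at least 10 UMIs of the C1q genes, typical of mature macrophages, had 17 of 4841 (0.351%), and the rest 4 of 1510 (0.265%). None of these subsets exceeded the T cell share.

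The order of levels over lineages was thus led by WT microglia. Conventional dendritic cells, B cells, plasmacytoid dendritic cells and mast cells or basophils had 0 Cxcl13 UMIs in every library in which they were found, though with few cells: conventional dendritic cells numbered 30 in KO and 32 in WT anti-PD1, and 108 in KO and 117 in WT untreated. Neutrophils had 1 UMI in WT anti-PD1 and NK cells 1 UMI in WT untreated. Below WT microglia the levels ran from WT anti-PD1 neutrophils (4.76 CPM, 1 UMI) through KO anti-PD1 microglia (2.003 CPM), WT untreated NK cells (1.43 CPM, 1 UMI), WT anti-PD1 T cells (1.25 CPM) and WT anti-PD1, KO anti-PD1 and WT untreated monocytes and macrophages (0.832, 0.471 and 0.0775 CPM). Each of these overlapped its neighbour in the order within the counting intervals.

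Set among all genes, Cxcl13 was at the low end of the KO/WT ratios in microglia. The gene was picked for this fall, so its low rank follows from the choice and is given as a description. Among genes with at least 50 UMIs over the libraries compared, it ranked 11 of 9472 from the lowest with anti-PD1, where the median of all genes was a log2 ratio of 0.25. It ranked 6 of 5991 without treatment, with its bound standing for its value and a median of 0.02 over all genes. The 10 genes below it with anti-PD1 were Rtp4, Irf7, Oas1a, Oasl1, Oasl2, Ifi27l2a, Usp18, Helz2, Ifi206 and Oas2, and the 5 below it without treatment were Ifi27l2a, Rsad2, Slfn5, Xaf1 and Rtp4, most of which are known interferon-stimulated genes. At least 16-fold lower in KO were 0.317% of genes with anti-PD1 and 0.217% without.

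Interferon-stimulated genes were lower in KO microglia nearly throughout. With anti-PD1, 28 of 28 measured members of a 30-gene list were at least 2-fold lower in KO (median log2 ratio -4.79), against 4.62% of all genes. Without treatment 24 of 26 were (median -2.79), against 2.34% of all genes. At least 2-fold higher in KO were 9.14% of all genes with anti-PD1 and 1.75% without, and no member of the list. Cxcl13, picked for its fall, was at -5.82 and a bound of -4.72, below both medians.

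The other CXC chemokines did not share the size of its difference. Cxcl9 and Cxcl10 are ligands of CXCR3 that attract activated T cells and are known to be interferon-responsive. Cxcl10 had 229 CPM in KO and 771 CPM in WT anti-PD1 microglia (log2 ratio -1.75), and 473 CPM in KO and 587 CPM in WT untreated microglia (-0.31). Cxcl9 had 65.2 CPM in KO and 141 CPM in WT with anti-PD1 (-1.11), and 263 CPM in KO and 285 CPM in WT without treatment (-0.11). Both are thus past 2-fold with anti-PD1, and neither is without treatment.

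Cxcl16, the ligand of CXCR6, had log2 ratios of -0.19 with anti-PD1 and -0.16 without. Cxcl2, a neutrophil attractant, had 141 CPM in KO and 48.5 CPM in WT with anti-PD1 (1.54), and 79.4 CPM in KO and 146 CPM in WT without treatment (-0.87). Pf4, which platelets and some macrophages make, had 17.9 CPM in KO and 3.55 CPM in WT with anti-PD1 (2.30). In all, of 6 measured CXC ligands with anti-PD1, 2 were at least 2-fold lower in KO and 2 higher, against 4.62% and 9.14% of all genes. Of 4 without treatment none was in either direction, against 2.34% and 1.75% of all genes.

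The lymphotoxin and NF-kB route, through which stromal cells are known to make CXCL13, showed no such fall at the RNA level. Relb, a subunit of the dimer that drives Cxcl13 in lymphoid stroma, had 94.9 CPM in KO and 98.2 CPM in WT with anti-PD1 (log2 ratio -0.05), and 54.2 CPM in KO and 54.6 CPM in WT without treatment (-0.01). Nfkb2, which encodes the p52 precursor, had ratios of -0.10 and -0.25. Ltbr, the lymphotoxin beta receptor, had 32.9 CPM in KO and 48.5 CPM in WT with anti-PD1 (-0.56), and 70.0 CPM in KO and 55.4 CPM in WT without treatment (0.34).

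Of 12 measured members of that list with anti-PD1, Cd40, a costimulatory receptor that feeds the non-canonical route (-1.55), and Ltb, a lymphotoxin subunit (-1.05), were at least 2-fold lower in KO, and Nfkb1 (1.42) and Map3k14, the kinase NIK (1.14), at least 2-fold higher, against 4.62% and 9.14% of all genes. Of 10 without treatment none was past 2-fold in either direction, against 2.34% and 1.75% of all genes. RNA levels say nothing of the processing of p100 to p52, which sets this route.

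**Figure D4:**
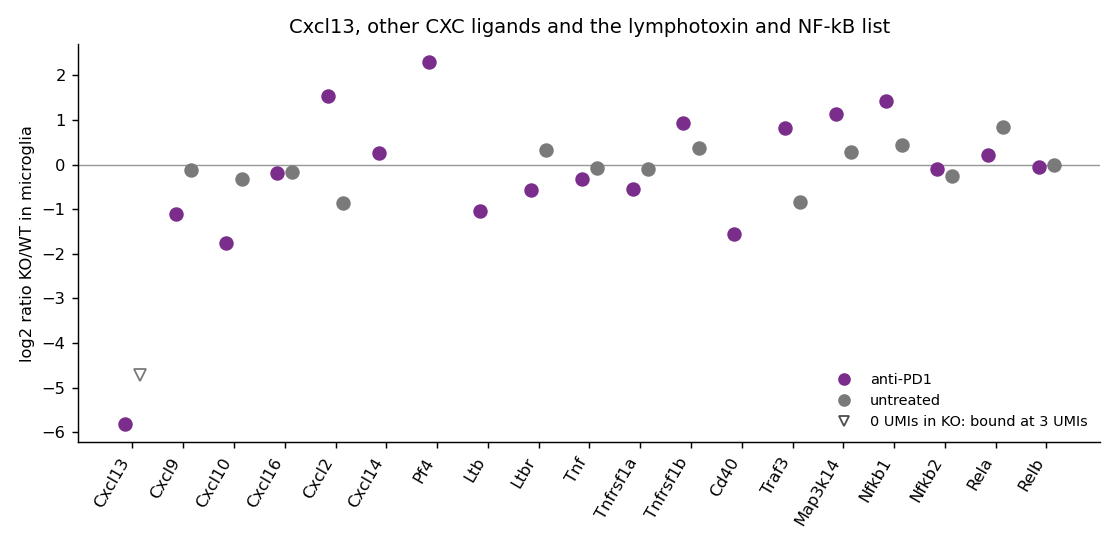
Log2 ratio KO/WT in named microglia for Cxcl13, other measured CXC ligands and the lymphotoxin and NF-kB list, with anti-PD1 (purple) and without treatment (grey); the open triangle is a bound. Cxcl13 lies at -5.82 and -4.72, and the lowest of the other genes shown is Cxcl10 at -1.75 with anti-PD1.

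The receptor side was read in other cells. Cxcr5 had 54.9 CPM (22.1 to 113) in 17 KO B cells and 85.8 CPM (62.8 to 114) in 74 WT B cells without treatment, intervals that overlap. The anti-PD1 libraries held 2 KO and 5 WT B cells, too few to give a level. Conventional dendritic cells had 17.1 CPM of Cxcr5 in KO and 21.2 CPM in WT with anti-PD1. Without treatment they had 7.96 CPM in KO and 20.6 CPM in WT. T cells had 3.23 CPM in KO and 7.11 CPM in WT with anti-PD1, and 0.537 CPM in KO and 2.67 CPM in WT without treatment. The 17.1 CPM of KO anti-PD1 dendritic cells and the 0.537 CPM of untreated KO T cells are each the level of 3 UMIs. In microglia Cxcr5 had 11 UMIs in KO and 2 in WT with anti-PD1, and 0 in KO and 1 in WT without treatment.

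Of the 13 genes of the B cell zone and receptor list, 4 were measured in microglia in each comparison and none was past 2-fold in either direction. With 4.62% and 9.14% of all genes past it with anti-PD1, and 2.34% and 1.75% without, a count of 0 in so few is near the background. Tnfsf13b, the B cell survival factor BAFF, had 26.6 CPM in KO and 44.3 CPM in WT with anti-PD1 (-0.73), and 40.2 CPM in KO and 42.7 CPM in WT without treatment (-0.09). Cxcr4, the receptor for Cxcl12, had ratios of 0.90 with anti-PD1 and -0.89 without. Cxcl12, Ccl19 and Ccl21a, the other chemokines of lymphoid zones, had at most 5 UMIs in microglia of any library.

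Within each WT library, microglia with a Cxcl13 UMI were set against those without. These comparisons do not use the genotype, but the cells of 1 library are not replicates. Positive cells were deeper than negative ones, with median totals of 14659 and 8503.5 UMIs with anti-PD1 (35 and 430 cells) and 7846 and 5562 UMIs without treatment (13 and 172 cells). Positive cells were higher than negative ones for 25 of 28 measured interferon-stimulated genes with anti-PD1 (median log2 ratio 0.38), where 3324 of 7209 genes were higher and the median was -0.04. Without treatment 23 of 25 were higher (median 0.79), where 1705 of 3924 genes were higher and the median was -0.10.

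Few of these differences were large. At least 2-fold higher in positive cells was 1 of 28 list members with anti-PD1, against 1.19% of all genes, and 2 were at least 2-fold lower, against 5.59%. Without treatment 6 of 25 were at least 2-fold higher, against 2.34% of all genes, and none lower, against 10.3%. Oas2, an antiviral RNA-sensing synthase, led with 1.29 with anti-PD1 and 1.31 without, followed by Slfn5 (0.92 and 0.77) and Oasl1 (0.75 and 1.05). Rsad2, the antiviral enzyme viperin, went the other way in named cells, at -1.30 and -0.38. The untreated value rests on 10 UMIs in positive cells, with a ratio interval of 0.345 to 1.40. In untreated cells of the inclusive gate Rsad2 was higher in positive cells (0.66, ratio interval 1.18 to 2.05), so its direction depends on the gate. In the inclusive gate the list medians were 0.48 with anti-PD1 (29 of 30 higher) and 0.67 without (26 of 30 higher). Over all genes measured there, 4304 of 9572 were higher with anti-PD1 and 4016 of 8728 without.

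The same cells had more of the CXCR3 ligands. Cxcl9 had 216 CPM in positive and 132 CPM in negative WT microglia with anti-PD1 (log2 ratio 0.71), and 482 CPM in positive and 265 CPM in negative cells without treatment (0.87). Cxcl10 had 1185 CPM in positive and 724 CPM in negative cells with anti-PD1 (0.71), and 697 CPM in positive and 576 CPM in negative cells without treatment (0.28, with an interval of the ratio of 0.947 to 1.52). Cxcl16 had ratios of 0.63 and 0.59. Cd40 had 55.0 CPM in positive and 25.1 CPM in negative cells with anti-PD1 (1.15), and Relb had ratios of -0.36 with anti-PD1 and 0.63 without.

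Homeostatic microglia genes that the gate did not use were lower in positive cells of the named gate. None of the 9 on that list was higher in positive cells in either WT library. Over all measured genes, 3324 of 7209 were higher with anti-PD1 and 1705 of 3924 without. The list medians were -0.64 with anti-PD1 and -0.58 without, and Fcrls, a scavenger receptor of microglia, had -1.52 and -2.10. P2ry13, a purine receptor, had -0.76 and -0.93. The inclusive gate gave a median of 0.17 without treatment, so this direction flips there with the gate. Of the 7 MHC class II genes, 6 of 7 were higher in positive cells with anti-PD1 (median 0.28) and 6 of 6 measured without treatment (median 0.70). Disease-associated microglia genes had no shared direction in named cells. With anti-PD1 10 of 15 were higher in positive cells (median 0.13), and without treatment 6 of 14 measured were (median -0.25). The untreated count is near the share over all genes. Among the disease-associated genes, Cst7 was higher (0.68 and 0.50) and Csf1 lower (-0.66 and -0.78) in both libraries.

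When microglia of a library were ordered by the summed CPM of the interferon-stimulated list and cut into equal tertiles, Cxcl13-positive WT cells gathered at the top. With anti-PD1, named WT microglia were positive in 2 of 155 cells (1.29%, 0.157 to 4.58) of the lowest tertile, 12 of 155 (7.74%) of the middle and 21 of 155 (13.5%, 8.59 to 20.0) of the highest. Without treatment they were positive in 0 of 62 (0%, 0 to 5.78), 4 of 62 (6.45%) and 9 of 61 (14.8%, 6.98 to 26.2), from the lowest tertile to the highest. Median depths, in the same order, were 7422, 9928 and 10255 UMIs in the anti-PD1 tertiles and 4946, 5396 and 7432 UMIs in the untreated ones.

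With Cxcl13 read after thinning to 2000 UMIs, the order stayed: 1.37%, 3.27% and 8.50% with anti-PD1, and 0%, 1.75% and 6.90% without. The thinned intervals of the highest and lowest tertile overlapped in both libraries, at 4.60 to 14.1% against 0.166 to 4.86% with anti-PD1 and at 1.91 to 16.7% against 0 to 6.16% without. The inclusive gate gave 9 of 331, 27 of 330 and 57 of 330 WT cells with anti-PD1, and 0 of 173, 16 of 172 and 20 of 172 without. Named KO microglia had 0, 1 and 2 positive cells with anti-PD1 (0, 1 and 13 UMIs), from the lowest tertile to the highest, and 0 in each without treatment. KO cells of the inclusive gate had 2 positive cells in each tertile with anti-PD1 and 0, 1 and 1 without. In the inclusive gate, median list levels of the highest KO tertile were 833 CPM with anti-PD1 and 1454 CPM without. Those of the lowest WT tertile were 1154 and 1055 CPM. With anti-PD1, 0.331% (0.0401 to 1.19) of these KO cells and 2.72% (1.25 to 5.10) of these WT cells had a Cxcl13 UMI. Those intervals did not overlap. Without treatment the shares were 1% (0.0253 to 5.45) in KO and 0% (0 to 2.11) in WT, with overlapping intervals.

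**Figure D5:**
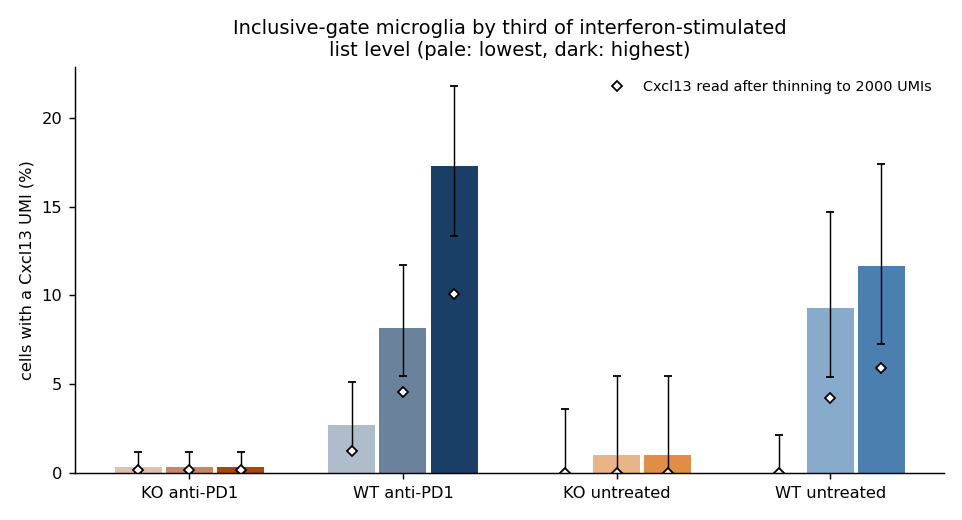
Share of inclusive-gate microglia with a Cxcl13 UMI (%), by tertile of the interferon-stimulated list within each library, with exact Clopper-Pearson intervals; diamonds give the share with Cxcl13 thinned to 2000 UMIs. The WT anti-PD1 bars stand at 2.72% in the lowest tertile and 17.3% in the highest, and all KO bars stay at or under 1%.

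Cells with Lpl or Apoc1, lipid genes that rise in activated microglia, were positive more often, but were also deeper. In WT anti-PD1, 19 of 174 cells with either gene (10.9%, 6.70 to 16.5; median depth 11717 UMIs) and 16 of 291 without (5.50%, 3.18 to 8.78; 7664 UMIs) had a Cxcl13 UMI. In WT untreated these were 6 of 52 (11.5%, 4.35 to 23.4; 8425.5 UMIs) and 7 of 133 (5.26%, 2.14 to 10.5; 5115 UMIs). The intervals overlap in both libraries in named cells. In the inclusive gate they did not, with 13.5% (10.4 to 17.2; 15414 UMIs) and 6.42% (4.56 to 8.75; 8816 UMIs) in WT anti-PD1, and 12.7% (7.69 to 19.3; 10962.5 UMIs) and 4.80% (2.87 to 7.48; 8177 UMIs) in WT untreated. The order of the levels turned with the gate, and in named cells the level without either gene rests largely on 1 cell in each library. Named cells had 69.2 CPM with either gene and 163 CPM without in the anti-PD1 library. There 1 cell held 243 of the 399 UMIs of the cells without. In the untreated library they had 62.4 CPM with either gene and 80.9 CPM without, where 1 cell held 52 of 62 UMIs. Cells of the inclusive gate had 105 CPM with either gene and 90.4 CPM without in the anti-PD1 library, and 97.2 and 49.2 CPM in the untreated one.

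The genes whose level was most like that of Cxcl13 were sought over the 19 sums of a lineage and library with at least 50 cells, by Pearson's r of log2(CPM + 1) among 9952 genes. They were Serping1 (0.875), Pdyn (0.846), Pgbd5 (0.835), 2610528A11Rik (0.801), Rbfox1 (0.796) and Cox6a2 (0.774). The sums share libraries and their depth, and the values are a description. Serping1, which encodes the C1 inhibitor of complement, had 2.58 CPM in KO and 65.8 CPM in WT anti-PD1 microglia, and 8.41 CPM in KO and 23.7 CPM in WT untreated microglia. Pdyn, the precursor of dynorphin peptides, had 8.16 CPM in KO and 28.8 CPM in WT with anti-PD1, and 8.41 CPM in KO and 30.9 CPM in WT without treatment. In monocytes and macrophages both had under 3 CPM in all 4 libraries. Cox6a2 was also part of the plasmacytoid dendritic cell gate, so cells rich in it could be set apart from the named microglia.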

How the data were processed

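Single-cell libraries of brain immune cells were deposited by the authors as raw counts of UMIs per gene and barcode, with Cell Ranger 3.1.0 (untreated) and 7.2.0 (anti-PD1) per the file headers and the builds mm10 and GRCm38 per the submitters' processing notes; settings for intronic reads are not given in the sources used here. A cell was used if it had 200 detected genes or more and no more than 10% of its counts mitochondrial (3.30%, 0.693%, 24.2% and 21.0% of barcodes exceeded that limit in KO anti-PD1, WT anti-PD1, KO untreated and WT untreated). No doublet caller was run; cells passing several of 9 marker gates were set apart. Counts were summed per gate and library, scaled to CPM, and compared as log2 ratios with a pseudocount of 0.5 for genes with at least 50 UMIs. Against 0 counts a floor of 3 gave a bound, which leaves out the counting error of the other sum. Intervals were exact Poisson, conditional binomial (ratios) and Clopper-Pearson (shares), and cover counting error only. The functions were checked on simulated counts.

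The gene, gates and lists were chosen with earlier results of these data known. Named genes were members of the B cell zone, lymphotoxin and CXC lists, up to 3 members each way of other lists by the smaller difference between positive and negative cells, the 6 most alike genes and those ranked below Cxcl13. Ifnar1, Isg15, Cx3cr1, Csf1r and markers at 0 stand outside that rule. Python 3.11.15, scipy 1.17.1, and edgeR 4.0.16 and DESeq2 1.42.0 for scaling factors in R 4.3.3 were used; 17 alternatives were planned and 3 added after seeing the data.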

Additional observations from a re-analysis of the deposited data

Results flagged for a closer look

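Barcodes removed by the cell filter held 4 Cxcl13 UMIs in the untreated WT library, a signal outside the cells compared and above the 0 UMIs in removed barcodes of untreated KO. Removed barcodes of both anti-PD1 libraries held 0.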

How the results depend on the processing

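Of the 6 genotype, treatment and lineage ratios with a value in named cells, 5 kept their direction under all 18 alternatives run on them. The genotype ratio of monocytes and macrophages with anti-PD1 (log2 -0.78) did not: it was 0.79 with cells of both myeloid gates left out, 0.18 after thinning to 2000 UMIs, and at least 3.27 when the T cell level was subtracted, which took WT to 0. Without treatment that ratio had no value, since both sums were at or under the floor. Of the 5 that kept their direction, the untreated genotype ratio of microglia had 0 KO UMIs in most alternatives. The anti-PD1 genotype ratio of microglia had 0 KO UMIs without the 5 highest cells. Against 0 KO UMIs the direction could not turn.

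The untreated bound in microglia (-4.72) was -1.45 with the stricter cell filter (at least 500 genes, at most 5% mitochondrial), which left 16 WT UMIs, -1.91 and -1.95 after thinning to 2000 and 1000 UMIs, -4.15 with each cell weighted alike, and -1.56 and -3.55 without the 5 highest cells and the highest cell. The anti-PD1 ratio (-5.82) was -4.90 thinned to 1000 UMIs and -7.54 without the highest cell. The WT ratio of anti-PD1 to untreated (0.66) was 2.48 with the stricter filter, 1.07 with TMM (1.065) and with DESeq2 size factors (1.071), 0.10 thinned to 1000 UMIs, and 2.02 (2.015) and 1.01 (1.008) without the 5 highest cells and the highest cell. Thinning leaves fewer UMIs by construction, and leaving out top cells removes the cells that held the most. Without the highest cell, 2 KO and 318 WT UMIs were left with anti-PD1. Without the 5 highest, 10 were left in untreated WT. The cause of the other moves was not tested.

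Microglia over macrophages in WT with anti-PD1 (7.12) was 8.73 without cells of both gates, 6.21 with inclusive gates, 6.42 with those without lymphoid or mast gates, 6.70 with cells weighted alike, at least 11.2 with the T cell level subtracted and 6.55 thinned to 1000 UMIs. Without treatment (9.31) it was 7.33 with the stricter filter, at least 5.65 and 5.68 (5.675) thinned to 2000 and 1000 UMIs, and at least 5.15 (5.145) and 7.14 without the 5 highest cells and the highest cell.

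Shares of WT microglia thinned to 2000 and 1000 UMIs were 4.42% and 2.83% with anti-PD1 and 2.89% and 2.75% without. Shares of WT monocytes and macrophages were 0.543% with inclusive gates and 0.115% and 0.0956% thinned with anti-PD1, and 0% without treatment when thinned to either depth or without cells over 3 times the median UMIs. The median of the interferon-stimulated list in positive against negative WT cells stayed above 0. With anti-PD1 (0.38) it was 0.79 and 0.71 thinned to 2000 and 1000 UMIs, 0.62 without Csf3r in the neutrophil gate and 0.66 in inclusive gates without lymphoid or mast gates. Without treatment (0.79) it was 0.34 without cells over 3 times the median UMIs, 1.31 thinned to 1000 UMIs, 1.08 with positive cells at 2 UMIs or more, 0.30 without Csf3r and 0.32 in inclusive gates without lymphoid or mast gates.

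The neutrophil gate without Csf3r, the highest cell left out and the inclusive gates without lymphoid or mast gates were chosen after seeing the data. No paired analysis was possible because each group had 1 library and no test was made. Depth limits the untreated KO value: 140 named microglia with 1070736 UMIs put its floor at 2.80 CPM.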
